A study of Drosophila melanogaster with 12 samples.

Results

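Cyclins and cyclin-dependent kinases (Cdks) were followed in *Drosophila* SL2 cells, a macrophage-like line in culture, on 12 Affymetrix Drosophila Genome 2.0 arrays. The members were the cyclin genes CycA, CycB, CycB3, CycD and CycE, the kinase genes Cdk1 and Cdk2, the phosphatase gene stg (string), the transcription factor gene E2f1 and the Cdk inhibitor gene dap, each taken by the probe sets annotated to that gene alone. Of these 10 genes, 5 had such a probe set (CycB, CycB3, CycD, CycE and Cdk2), with 1 probe set each, out of 11982 genes with a probe set of their own in the whole series. E2f1 had only a probe set shared with Torsin. CycA, Cdk1, stg and dap had no entry in the annotation used here and were not analysed.

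For 4 days the cells were kept with dsRNA at 12.5 µg/ml, directed at Tis11 (Tis11 kd) or, in the controls, at GFP (GFP kd). In the groups Tis11 kd + LPS and GFP kd + LPS, the same dsRNA treatments were combined with 10 µg/ml lipopolysaccharide (LPS) for 4 h. Each of the 4 groups had 3 biological repeats, and all groups shared the exposure to dsRNA. Tis11 is the fly member of the TTP family of proteins that bring about decay of mRNAs with AU-rich elements. No probe set for Tis11 was examined here, so the knockdown itself was not checked on the arrays. The authors report that they checked it in separate assays, by Northern blot and by qPCR.

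Progress through the cell cycle depends on Cdks, which are active only when bound to a cyclin. In flies, CycD acts with Cdk4 in growth and G1 progression, CycE with Cdk2 at the entry into S phase, and CycA, CycB and CycB3 with Cdk1 in G2 and mitosis. E2F and its partner Dp drive transcription of S phase genes and of CycE, string removes the inhibitory phosphate from Cdk1, and dacapo, the product of dap, inhibits CycE-Cdk2. Because cyclin and S phase mRNAs vary over the cycle, their level in a culture also depends on how its cells are spread over the phases. In such bulk samples, fewer cells that express a gene and less RNA per cell cannot be told apart.

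Values are log2 signals after Robust Multi-array Analysis (RMA), and differences are given on the same scale. Over 18769 probe sets tested, values ran from 2.25 to 14.01, and 11575 probe sets had a mean under 6, near background. All 5 probe sets described here had a mean above 6. The markers of macrophage-like blood cells (plasmatocytes) were high, with 9 of 9 above 6. Of the genes listed here for other blood cells, 2 of 3 for crystal cells (PPO1 and PPO2) were above 6 as well. So were 2 of 3 listed for lamellocytes (Itgbn and cher), of which Itgbn may not be particular to that cell type. By contrast, 0 of 3 fat body, 0 of 3 neuron, 0 of 2 germline and 0 of 1 muscle markers reached a mean of 6. The shared E2f1 and Torsin probe set read 3.76 to 4.54 with a mean of 4.15, and 17.9% of all probe sets had a lower mean, so no statement on E2f1 was made.

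The 3 arrays of each group were ranked by their spike-in signal, and arrays of equal rank were taken as a set, so that each of the 3 sets held 1 array of every group by construction. The 27 probe sets for the polyadenylated bacterial spike-in RNAs, which are added to the RNA before labelling, had mean log2 values of 5.30 to 5.38 on 4 arrays (low set), 6.13 to 6.56 on 4 arrays (middle set) and 7.33 to 9.51 on 4 arrays (high set). The ranges of the sets did not overlap, but the widest gap lay inside the high set, between Tis11 kd + LPS repeat 3 (7.77) and Tis11 kd repeat 2 (9.31). The low set consisted of Tis11 kd repeat 3, GFP kd repeat 2, Tis11 kd + LPS repeat 1 and GFP kd + LPS repeat 1, and the middle set of Tis11 kd repeat 1, GFP kd repeat 3, Tis11 kd + LPS repeat 2 and GFP kd + LPS repeat 3. The high set consisted of Tis11 kd repeat 2, GFP kd repeat 1, Tis11 kd + LPS repeat 3 and GFP kd + LPS repeat 2. The sets were recognised after the data had been seen, no label names them, and differences between cultures and between labelling reactions cannot be told apart in them. Probe sets for 18S rRNA also varied, between 6.91 and 7.48 in the low set, 7.05 and 12.18 in the middle set and 7.28 and 11.59 in the high set. The highest 18S values were on Tis11 kd + LPS repeat 2 (12.18), GFP kd + LPS repeat 2 (11.59) and Tis11 kd + LPS repeat 3 (10.69). The other LPS arrays read 6.91 to 7.68, and the highest array without LPS, GFP kd repeat 1, read 9.39. Signals of the hybridisation controls were highest on Tis11 kd + LPS repeat 3 (10.80) and GFP kd + LPS repeat 2 (10.02). The part of the 18S and hybridisation control signals in the results was not tested.

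The G1 cyclin CycD (probe set 1627295_s_at) was at 8.66, 8.07 and 8.39 after Tis11 kd and at 8.19, 8.60 and 8.65 after GFP kd. With LPS it was at 8.56, 8.57 and 8.08 in Tis11 kd cells and at 8.69, 8.40 and 8.79 in GFP kd cells. The repeats of a group spanned 0.40 to 0.59, and the groups overlapped. Group means were 8.37 ± 0.29 for Tis11 kd, 8.48 ± 0.26 for GFP kd, 8.40 ± 0.28 for Tis11 kd + LPS and 8.63 ± 0.20 for GFP kd + LPS (SD, n = 3).

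CycE (1626249_s_at), the cyclin of S phase entry, was at 7.44, 7.45 and 7.05 after Tis11 kd and at 7.22, 6.98 and 6.66 after GFP kd. In the presence of LPS, the values were 7.14, 6.96 and 8.03 for Tis11 kd and 6.88, 7.85 and 6.48 for GFP kd. The Tis11 kd means were above the GFP kd means both without and with LPS, but single repeats overlapped. The means were 7.31 ± 0.23 for Tis11 kd, 6.96 ± 0.28 for GFP kd, 7.38 ± 0.57 for Tis11 kd + LPS and 7.07 ± 0.70 for GFP kd + LPS (SD, n = 3).

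Cdk2 (1640394_s_at), the kinase partner of CycE, was at 6.68, 7.67 and 7.34 after Tis11 kd and at 7.71, 7.40 and 6.33 after GFP kd. After LPS it read 7.23, 6.35 and 7.62 in Tis11 kd cells and 7.35, 8.14 and 6.11 in GFP kd cells. Each group thus held 1 repeat well below the other two. Within GFP kd + LPS the repeats spanned 2.03 on the log2 scale, a 4.07-fold range, whereas the 4 group means (7.23 ± 0.50 for Tis11 kd, 7.15 ± 0.72 for GFP kd, 7.06 ± 0.65 for Tis11 kd + LPS and 7.20 ± 1.02 for GFP kd + LPS; SD, n = 3) lay within 0.16 of each other.

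CycB (1639876_a_at), a mitotic cyclin, was at 10.06, 10.08 and 9.99 after Tis11 kd and at 10.04, 10.13 and 9.75 after GFP kd. With LPS, values of 9.98, 9.84 and 10.25 were measured in Tis11 kd cells and of 10.09, 10.88 and 9.68 in GFP kd cells. The highest and the lowest of the 12 values thus both belonged to GFP kd + LPS. The means were 10.04 ± 0.05 for Tis11 kd, 9.97 ± 0.20 for GFP kd, 10.03 ± 0.21 for Tis11 kd + LPS and 10.22 ± 0.61 for GFP kd + LPS (SD, n = 3).

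CycB3 (1626454_at), the third mitotic cyclin of the fly, was at 7.41, 7.49 and 7.53 after Tis11 kd and at 7.60, 7.64 and 7.13 after GFP kd. In LPS-treated cells it was at 7.40, 6.83 and 7.35 for Tis11 kd and at 7.51, 7.80 and 6.86 for GFP kd. The 3 values of Tis11 kd + LPS all lay below those of Tis11 kd, with the nearest repeats at 7.40 and 7.41. Group means were 7.48 ± 0.06 for Tis11 kd, 7.46 ± 0.28 for GFP kd, 7.19 ± 0.32 for Tis11 kd + LPS and 7.39 ± 0.48 for GFP kd + LPS (SD, n = 3).

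**Figure D1:**
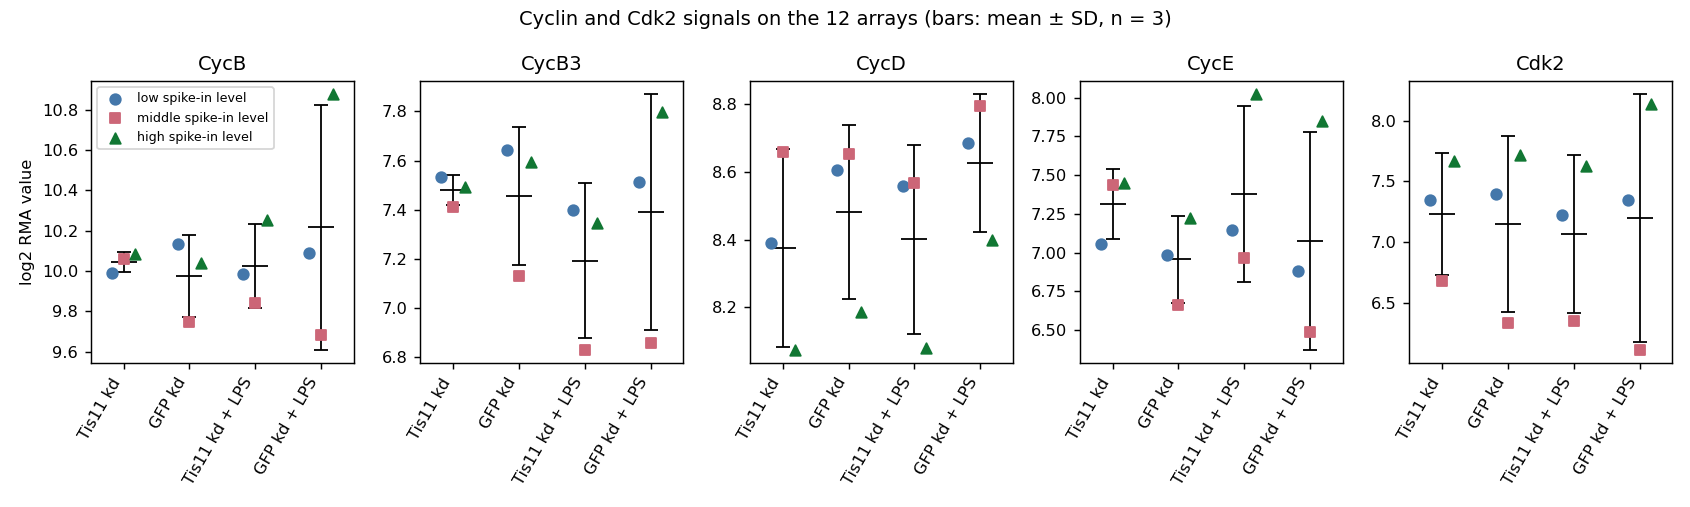
Log2 RMA values of CycB, CycB3, CycD, CycE and Cdk2 on the 12 arrays, by group on the horizontal axis, with a vertical scale of its own for each gene. Points are single arrays, coloured and shaped by spike-in set, and bars give the mean ± SD of 3 repeats. Cdk2 is lowest in the middle set of every group, between 6.11 and 6.68, and CycD is lowest in the high set of every group, between 8.07 and 8.40.

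Variation between repeats was set against variation between groups. The range of the 4 group means was 0.24 for CycB, 0.29 for CycB3, 0.25 for CycD, 0.42 for CycE and 0.16 for Cdk2. The pooled SD between repeats of a group was 0.34 for CycB, 0.32 for CycB3, 0.26 for CycD, 0.49 for CycE and 0.75 for Cdk2. For each of the 5 genes, no pair of neighbours in the order of the group means differed beyond this spread. This order of the measures depended on the spike-in sets, since with the sets taken out the SD was 0.07 for CycD, 0.19 for CycB3 and 0.32 for CycE, below the range of their group means, and 0.27 for CycB and 0.22 for Cdk2, above it. A range of 4 means can exceed the SD between repeats without any difference between groups, so this was not read as a change. Among the 7194 probe sets whose mean was at least 6, the median SD between repeats was 0.26. Cdk2 varied more between repeats than 96.3% of them, CycE more than 85.9%, CycB more than 66.6%, CycB3 more than 63.3% and CycD more than 49.4%.

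To ask whether loss of Tis11 altered these mRNAs, Tis11 kd was compared with GFP kd by limma. No member passed the threshold of an adjusted p under 0.05 in unstimulated cells, where 0% of all probe sets passed (206 at an unadjusted limma p under 0.05). The largest difference was that of CycE, with a Tis11 kd minus GFP kd value of 0.36 (SE 0.18, 95% interval −0.06 to 0.78, limma adjusted p = 1). CycD differed by −0.11 (interval −0.56 to 0.34), Cdk2 by 0.08 (−0.86 to 1.02), CycB by 0.07 (−0.22 to 0.36) and CycB3 by 0.02 (−0.33 to 0.38). The interval of Cdk2 was the widest of the 5 in this fit, in which the spike-in sets were not taken into account.

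With LPS, again no member passed in the comparison of Tis11 kd with GFP kd, and 0% of all probe sets did (488 at an unadjusted limma p under 0.05). CycE differed by 0.30 (SE 0.42, 95% interval −0.71 to 1.32), a size close to that in unstimulated cells but with a wider interval. Leaving out Tis11 kd + LPS repeat 3 (8.03) brought it to −0.021. This left GFP kd + LPS repeat 2 (7.85) without its partner in the high spike-in set. Within the low, middle and high sets, the CycE difference with LPS was 0.26, 0.48 and 0.17. CycD differed by −0.23 (interval −0.66 to 0.20), CycB3 by −0.20 (−0.86 to 0.47), CycB by −0.19 (−0.93 to 0.54) and Cdk2 by −0.13 (−1.48 to 1.21), each with a limma adjusted p of 1. Averaged over both LPS states, where 0% of all probe sets passed (350 unadjusted), CycE was at 7.35 in Tis11 kd and 7.02 in GFP kd cells, a difference of 0.33 (SE 0.25), and CycD at 8.39 and 8.55, a difference of −0.17 (SE 0.14). The interaction of Tis11 kd with LPS, which tests whether the knockdown differences with and without LPS differ, passed for 0% of probe sets (373 unadjusted) and lay between −0.26 (CycB, SE 0.35) and −0.05 (CycE, SE 0.50) for the members.

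LPS was then compared with no LPS. In Tis11 kd cells 0.0799% of all probe sets passed, and no member was among them. CycB3 differed by −0.29 (SE 0.17, 95% interval −0.68 to 0.11, limma adjusted p = 1). Of 20 comparisons of 3 arrays against 3 (5 genes, 4 comparisons), this was the single one in which the groups did not overlap, as was the case for 8.37% of all probe sets in this comparison (4.47% for Tis11 kd without LPS, 9.73% for Tis11 kd with LPS and 6.49% for LPS in GFP kd cells). The other differences ran from −0.16 (Cdk2, SE 0.37) to 0.06 (CycE, SE 0.28).

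In GFP kd cells 0.0533% of all probe sets passed for LPS against no LPS, and again no member did. CycB differed by 0.24 (SE 0.30), CycD by 0.15 (SE 0.17), CycE by 0.12 (SE 0.35), Cdk2 by 0.05 (SE 0.57) and CycB3 by −0.07 (SE 0.27). The value for CycB rested on GFP kd + LPS repeat 2 and was −0.089 without it. Averaged over both dsRNAs, 0.155% of all probe sets passed and no member did, with CycB3 at 7.29 with LPS and 7.47 without, a difference of −0.18 (SE 0.17).

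**Figure D2:**
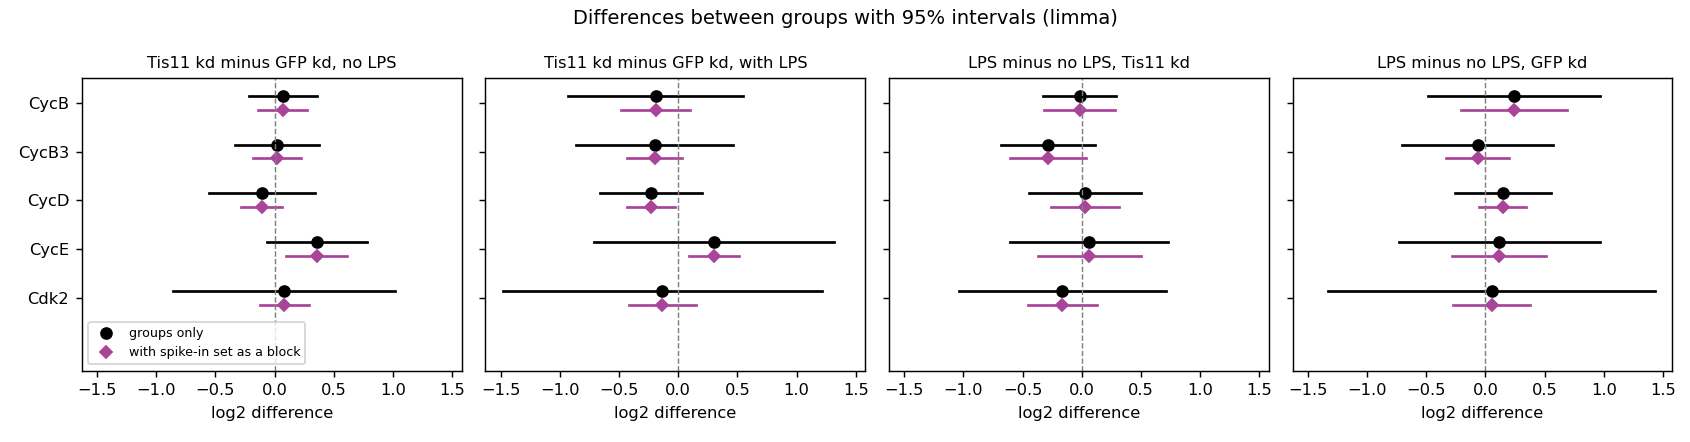
Log2 differences of the 5 genes in the 4 comparisons of 3 arrays against 3, with 95% intervals from limma. Black circles are from fits on the groups alone and purple diamonds from fits with the spike-in set as a block. The interval of Cdk2 for Tis11 kd minus GFP kd without LPS spans −0.86 to 1.02 in the first fit and −0.12 to 0.29 in the second.

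As every spike-in set held 1 array of each group, groups could also be compared within sets. CycE was higher in the Tis11 kd array than in its GFP kd partner in 6 of 6 pairs, by 0.07, 0.78 and 0.22 in the low, middle and high sets without LPS and by 0.26, 0.48 and 0.17 with LPS. Of all probe sets, 3.1% were higher and 3.4% were lower in 6 of 6 pairs, which makes 6.49% in either direction. With the set as a block, the interval for CycE was 0.10 to 0.61 without LPS and 0.09 to 0.52 with LPS, but the limma adjusted p was 0.349 and 0.266 over all probe sets, so CycE did not pass. CycD was lower after Tis11 kd in 5 of 6 pairs (−0.32 to 0.004), with a limma adjusted p of 0.327 with LPS. CycB3 was lower in 5 of 6 (−0.45 to 0.28). How many of all probe sets reached 5 of 6 was not counted, so these counts were not read as changes.

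For LPS against no LPS within the sets, CycB3 was lower with LPS in 5 of 6 pairs (−0.58 to 0.20), Cdk2 in 5 of 6 (−0.33 to 0.42) and CycB in 4 of 6 (−0.22 to 0.84), whereas CycD was higher in 5 of 6 (−0.09 to 0.21). CycE was higher in 3 and lower in 3. The share of all probe sets with such counts was not computed, and the counts were not read as changes. The opposite pairs for CycB3 and Cdk2 were both those of GFP kd cells in the high set. None of the 35 member values over all 7 comparisons passed with the set as a block, the smallest limma adjusted p being 0.266. In these fits 0.575% of all probe sets passed for Tis11 kd without LPS, 0.0426% with LPS and 0.117% averaged, 0.117% for LPS in Tis11 kd cells, 0.0959% in GFP kd cells and 1.36% averaged, and 0% for the interaction. At an unadjusted limma p under 0.05, 5 of the 35 member values (CycE in 3 comparisons and CycD in 2) passed with the block and 0 without it. Of all probe sets, 4.85% to 13.8% passed in this way with the block, depending on the comparison.

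The repeats themselves were then compared by spike-in set, with a limma F test over 3 sets that kept the groups in the fit. By this test, chosen after the sets had been seen, 4 of the 5 members passed, against 32% of all probe sets and 58% of those with a mean of at least 6. Most well-measured probe sets on the arrays thus differed between the sets, and the members were no exception. The replicate numbers given in the labels, tested in the same way, passed for 0% of probe sets and for no member (98 probe sets were under 0.05 by the unadjusted limma p).

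Cdk2 had the largest differences of the members. It was at 7.23 to 7.40 in the low set, 6.11 to 6.68 in the middle set and 7.62 to 8.14 in the high set, without overlap between sets. The high set exceeded the middle set by 1.42 (SE 0.13, limma adjusted p = 6e-05 for the F test), and the middle set was 0.96 below the low set. The order of Cdk2 values was thus not the order of the spike-in signals. Taking out the sets lowered its SD between repeats to 0.22.

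CycD showed another pattern. It was at 8.39 to 8.69 in the low set, 8.57 to 8.79 in the middle set and 8.07 to 8.40 in the high set. The high set was below the middle set by 0.48 (high minus middle −0.48, SE 0.07, limma adjusted p = 9e-04), while Cdk2, CycE and CycB3 were higher in the high than in the middle set. Its SD between repeats was 0.07 once the sets were taken out.

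CycE averaged 7.02 in the low, 6.89 in the middle and 7.64 in the high set, a high minus middle difference of 0.75 (SE 0.18, limma adjusted p = 0.014). Its middle set was not uniform, as Tis11 kd repeat 1 was at 7.44 and the other 3 arrays were between 6.48 and 6.96. CycB3 averaged 7.52, 7.06 and 7.56 in the low, middle and high sets (high minus middle 0.50, SE 0.11, adjusted p = 0.0096). CycB averaged 10.05, 9.83 and 10.31 (high minus middle 0.48, SE 0.16) and did not pass (adjusted p = 0.083). CycE did not pass without Tis11 kd + LPS repeat 3 or GFP kd + LPS repeat 2 (adjusted p up to 0.0592), nor CycB3 without GFP kd + LPS repeat 3 (0.0507).

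**Figure D3:**
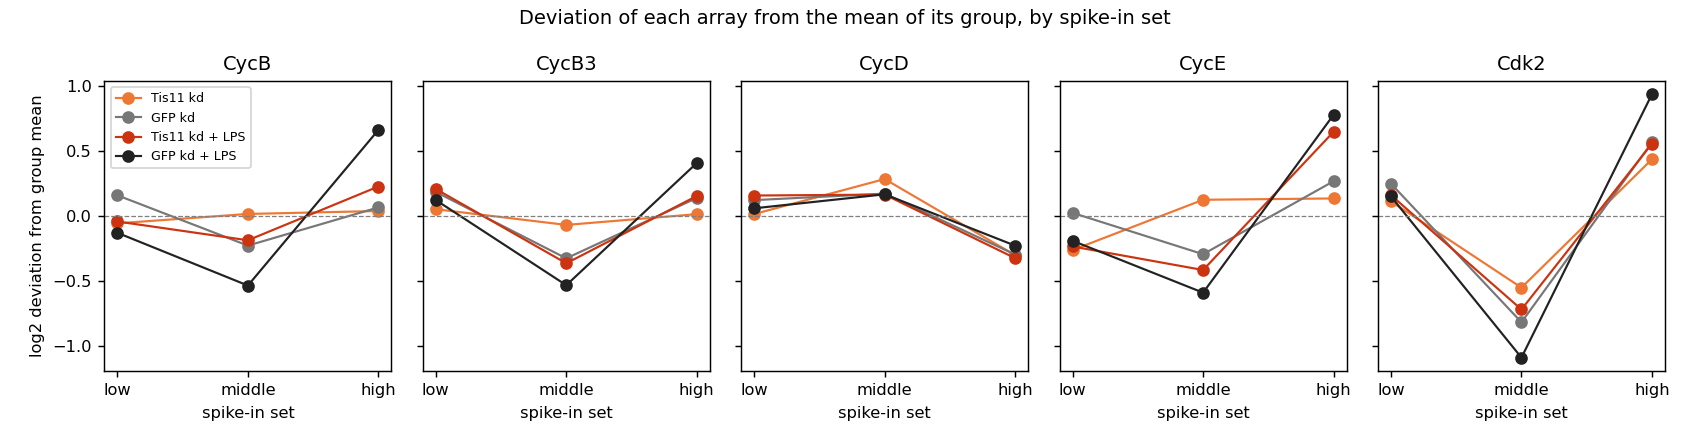
Deviation of each array from the mean of its group (log2, vertical axis) for the 5 genes by spike-in set (horizontal axis), with 1 line per group. Cdk2 is lowest in the middle set in all 4 groups, with a high minus middle difference of 1.42, and CycD is lowest in the high set in all 4.

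The members deviated from their group means together. Over the 12 arrays, Pearson's r between deviations was 0.74 to 0.93 for the 6 pairs among CycB, CycB3, CycE and Cdk2, the highest being that of CycB3 with Cdk2. CycD ran opposite to these genes, with r between −0.78 (Cdk2) and −0.52 (CycB3) in its 4 pairs. When the sets were also taken out, the 4 CycD pairs had r of 0.60 to 0.80, and the other 6 pairs 0.84 to 0.95. All such points share the array, its labelling and its normalization, and are given as a description.

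The genes whose values were most like each member over the 12 arrays were looked up among 6282 probe sets named for 1 gene, with a mean of at least 6. For Cdk2 these were CG31301 (r = 0.989), Su(var)205, which encodes heterochromatin protein HP1a (0.984), and Prp4k (0.983). For CycE they were the prefoldin gene Pfdn4 (0.951), the spindle checkpoint gene mad2 (0.934) and FRG1 (0.931). CycB was most like CG8545 (0.972), ais (0.954) and the pseudouridine synthase gene Nop60B (0.953), CycB3 like Acn (0.969), tun (0.967) and CG11961 (0.965), and CycD like Cftr (0.982), Naprt (0.962) and koi (0.961). High values of r were common on these arrays, as 20.1% of the candidates had r above 0.7 with Cdk2 and 15.7% had r below −0.7, while for CycE the shares were 16.4% and 9.09%.

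Genes of the cell cycle, other cyclins and Cdks, and growth regulators were read from 7 lists with 80 genes, of which 67 had a probe set of their own. Some of them, such as Cdk9 and CycT, act outside the cell cycle, so values over all 67 are not those of cell-cycle genes alone. In each of the 7 comparisons between groups, 0 of 67 passed in either direction. For Tis11 kd against GFP kd without LPS, their median difference was 0.06 (all probe sets 0.00). The highest values were those of mad2 (0.39, SE 0.16) and tos, an exonuclease gene (0.35, SE 0.14), and the lowest those of Mnt, which encodes a repressor of the Myc network (−0.15, SE 0.09), and the chromosomal passenger gene Incenp (−0.14, SE 0.18). The 8 measured genes of the list of E2F-linked S phase genes, to which tos belongs, had differences above 0, as did 49.4% of all probe sets, with a median of 0.16, and none passed. With LPS, 5 of these 8 were above and 3 below 0, with a median of 0.02 (all probe sets 0.02). With LPS the median of all 67 was −0.11 (all probe sets 0.02), and mad2 (0.23, SE 0.35) and the cyclin gene CycH (0.20, SE 0.14) had the highest values, twe, a second Cdc25-type phosphatase (−0.43, SE 0.40), and foxo (−0.40, SE 0.40) the lowest.

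For LPS against no LPS in Tis11 kd cells, 54 of the 67 differences were below 0 with a median of −0.11 (all probe sets 0.01), the lowest being foxo (−0.61, SE 0.34) and thr, the fly separase subunit gene (−0.41, SE 0.17). In GFP kd cells 41 of the 67 were above 0 with a median of 0.03 (all probe sets −0.02), from −0.26 for the thymidylate synthase gene Ts (SE 0.49) to 0.39 for Cdk5 (SE 0.29). As the lists hold genes that moved together between arrays, these counts were not read as changes.

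By spike-in set, 41 of the 67 genes passed the F test, of which 33 were lower and 8 higher in the middle than in the high set. These 41 make up 61.2%, near the 58% of all probe sets whose mean was at least 6, as was that of 65 of the 67 genes. Among those probe sets 29.2% passed and were lower in the middle than in the high set, and 28.8% passed and were higher. Of the E2F-linked S phase genes, 7 of 8 passed, all of them lower in the middle than in the high set, with a median high minus middle difference of 0.86 over the list (0.02 over all probe sets whose mean was at least 6). Ts differed by 1.13 (SE 0.14), PolA2, a subunit of DNA polymerase alpha, by 1.04 (SE 0.13), the replication licensing gene dup by 1.04 (SE 0.17) and the sliding clamp gene PCNA by 0.86 (SE 0.15). Orc1 did not pass (0.19, SE 0.09).

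Among the mitotic kinases, checkpoint and anaphase genes, 15 of 18 passed. The kinase gene aurB (1.15, SE 0.17), Incenp (0.84, SE 0.18) and mad2 (0.73, SE 0.12) were among the 12 that were higher in the high than in the middle set, and shtd (−0.37, SE 0.10), Cdc16 (−0.27, SE 0.07), both subunits of the anaphase-promoting complex, and Bub1 (−0.23, SE 0.07) were lower. Of the genes for E2F and RB, 5 of 8 passed, including Caf1-55 (0.62, SE 0.08) and Dp (0.30, SE 0.08), whereas Rbf, the fly RB protein (−0.04, SE 0.10), and E2f2 (0.16, SE 0.07) did not. Of the genes for control of Cdk phosphorylation, 3 of 6 passed, namely the checkpoint kinase genes grp (1.02, SE 0.14) and lok (0.52, SE 0.11) and the phosphatase gene twe (0.49, SE 0.18), whose mean of 5.37 was near background.

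The shares of these lists and of those that follow are to be read against the same 58%. The other cyclins and Cdks were mixed, with 6 of 14 passing. Cdk9 (−0.69, SE 0.11) and its partner CycT (−0.72, SE 0.13), both of which act in transcription elongation, and Cdk5 (−0.71, SE 0.09) and Cdk8 (−0.26, SE 0.09) were lower in the high than in the middle set, while Cdk12 (1.11, SE 0.22) and CycH (0.21, SE 0.07) were higher. Cdk4, the partner of CycD, had a high minus middle difference of 0.19 (SE 0.09) and did not pass (limma adjusted p = 0.29). Of the cyclin turnover genes, 3 of 8 passed (Cul1, Roc1a and l(2)dtl). Of the growth regulators 2 of 5 passed, InR, which encodes the insulin receptor (−0.73, SE 0.12), and foxo (0.31, SE 0.17). For foxo the larger difference was that of the middle from the low set (−0.77).

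Some markers of the cell type differed between the spike-in sets as well. Of the 9 plasmatocyte markers 8 passed, against 58% of probe sets whose mean was at least 6, and all 8 were lower in the middle than in the high set, among them Pxn (high minus middle 1.67, SE 0.19) and Hml (1.57, SE 0.12). The plasmatocyte marker NimC1 did not pass (0.08, SE 0.17). Itgbn, which was listed here with the lamellocyte markers, was lower in the high than in the middle set (−1.49, SE 0.15, limma adjusted p = 3.9e-05). Whether it marks lamellocytes in these cells was not tested. The lamellocyte markers cher (0.03, SE 0.32) and atilla (0.02, SE 0.13, with a mean of 5.07 near background) did not pass. Of the crystal cell markers, 0 of 3 passed. The mean of the 9 plasmatocyte markers ran from 10.06 to 10.55 in the low set, 9.33 to 10.21 in the middle set and 10.31 to 10.82 in the high set. Their part in the differences of the cyclins and of Cdk2 was not tested.

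**Figure D4:**
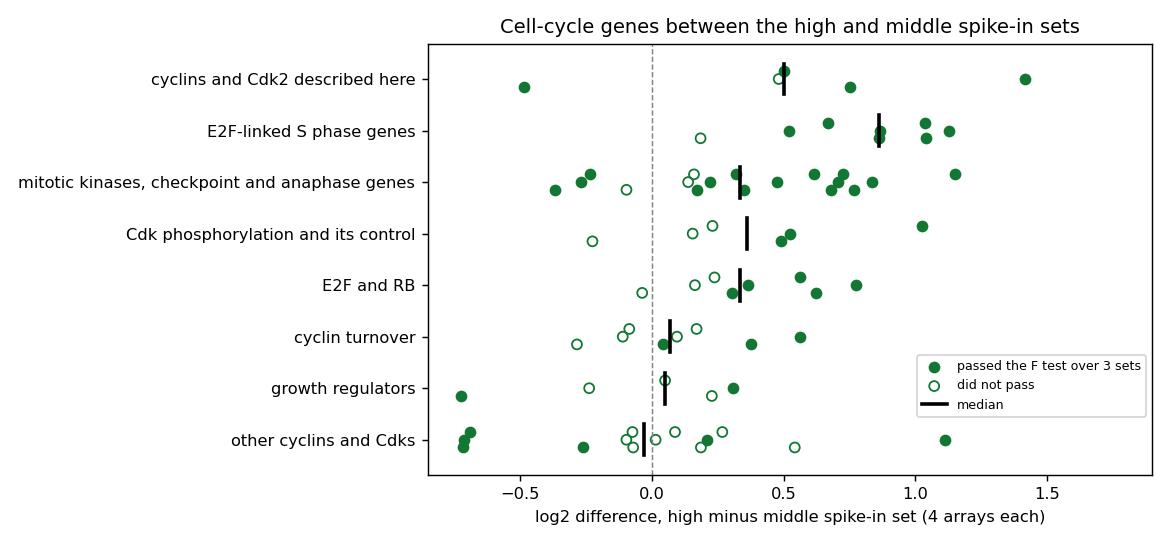
High minus middle spike-in set differences (log2, horizontal axis, 4 arrays each) for the 5 cyclin and Cdk2 genes and the 7 lists, which also hold growth regulators and cyclins and Cdks that act outside the cell cycle. Each point is 1 gene, filled where the limma F test over 3 sets passed at an adjusted p under 0.05, and vertical bars are medians. Among the E2F-linked S phase genes the median is 0.86, and among the other cyclins and Cdks it is −0.03.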

How the data were processed

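RNA of SL2 cells from 3 biological repeats of each of 4 groups was hybridised to 12 Affymetrix arrays. The authors normalized the signals by RMA, and deposited 1 log2 value per array for each of 18952 probe sets. The sources used here do not state whether all 12 arrays were normalized together. Values were used without further normalization, and 183 control probe sets stayed out of every test. The platform annotation named 13647 probe sets for 1 gene, 402 for several and 4720 for none.

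The package limma (version 3.58.1, R version 4.3.3) gave the tests, by lmFit and eBayes with Benjamini-Hochberg adjustment over all 18769 probe sets, on 6 arrays for the 4 comparisons of 3 against 3 and on 12 arrays for the averages, the interaction and the F tests. The p-values weigh a difference against the spread between repeats (3 a group), pooled over the groups in a fit and moderated by eBayes. Where spike-in sets or replicate numbers are in the fit, it is the spread that remains. The small number of repeats limits the precision. Spike-in sets are the ranks of the 27 polyadenylated bacterial controls within a group; they and the fits that use them were added after the data had been seen. The members, lists, named genes and alternatives were chosen with earlier results of these data known. Named were all members, the highest and lowest genes of the lists in a comparison between groups, and the 3 genes most like each member. The list genes and markers named for the spike-in sets were not chosen by this rule, but picked after the data had been seen.

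Alternatives were the replicate block, all 12 arrays in 1 fit, a mean of at least 6, median centring, quantile normalization again, an intensity trend, the methods' t-test, 1 probe set a gene and leaving out each array in turn. The limma fits were tested on simulated data. Plots were made in Python (3.11.15) with matplotlib (3.10.9).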

Additional observations from a re-analysis of the deposited data

How the results depend on the processing

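No member passed in any of the 7 comparisons or for replicate number under any of 690 combinations of result and alternative, the smallest limma adjusted p being 0.266. Same-numbered arrays deviated together (r above 0.1) in 3 of 18 pairs, against 18 of 18 for the same spike-in set. The sets were recognised after the data had been seen, and deviations in a group sum to 0. These counts are therefore not independent of each other and are given as a description. With the replicate block 4 probe sets passed for LPS in Tis11 kd cells, against 15 without it. With the spike-in set as a block, added after the data had been seen, 108 passed for Tis11 kd against GFP kd without LPS, 8 with LPS and 22 averaged, and for LPS 18 in GFP kd cells and 256 averaged. The methods' t-test passed 398, 889, 532 and 672 probe sets at an unadjusted p under 0.05 (Tis11 kd without and with LPS, LPS in GFP kd cells, LPS in Tis11 kd cells), and after adjustment 1 for LPS in GFP kd cells and 0 for LPS after Tis11 kd. With 1 probe set a gene, 5 passed for LPS in GFP kd cells and 6 for LPS after Tis11 kd. Leaving out 1 array gave 0 to 14 for LPS in GFP kd cells, 6 to 26 in Tis11 kd cells and 18 to 38 averaged.

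The directions of small differences were not fixed. Quantile normalization gave −0.013 for CycB3 (Tis11 kd without LPS), −0.0033 for Cdk2 (LPS in GFP kd), 0.029 for CycB (LPS in Tis11 kd) and 0.10 for CycE (interaction), and median centring −0.029 for CycD (LPS in Tis11 kd). Leaving out 1 array turned the sign of the following values. For Tis11 kd against GFP kd without LPS, Cdk2 ran from −0.33 to 0.37, CycB from −0.044 to 0.15, CycB3 from −0.14 to 0.12 and CycD from −0.26 to 0.042. With LPS, Cdk2 ran from −0.68 to 0.33, CycB from −0.46 to 0.14, CycB3 from −0.46 to 0.0056 and CycE from −0.021 to 0.69. Averaged, Cdk2 ran from −0.30 to 0.21, CycB from −0.19 to 0.11 and CycB3 from −0.22 to 0.014. For LPS in GFP kd cells, Cdk2 ran from −0.42 to 0.60, CycB from −0.089 to 0.51, CycB3 from −0.27 to 0.20, CycD from −0.0022 to 0.26 and CycE from −0.27 to 0.41. For LPS in Tis11 kd cells, Cdk2 ran from −0.44 to 0.20, CycB from −0.13 to 0.074, CycD from −0.12 to 0.19 and CycE from −0.26 to 0.27. For LPS averaged, Cdk2 ran from −0.29 to 0.22, CycB from −0.054 to 0.25 and CycE from −0.10 to 0.24. For the interaction, Cdk2 ran from −0.76 to 0.25, CycB from −0.53 to 0.071, CycD from −0.27 to 0.044 and CycE from −0.38 to 0.34. Each fit without 1 array left the spike-in sets unbalanced over the groups. The cause of the sign changes was not tested.

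In the F test over spike-in sets, Cdk2 (adjusted p 4.8e-05 to 0.000629) and CycD (0.00158 to 0.00509) passed whichever array was left out. CycB, which did not pass, did so with quantile normalization (0.0432) and without Tis11 kd repeat 1 or 2 (lowest 0.0411). The range of group means exceeded the SD between repeats for CycB3 (0.344 against 0.336) and CycD (0.30 against 0.28) after median centring and for CycE (0.48 against 0.45) after quantile normalization. This was not read as a difference between groups.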
